A study of Mus musculus with 21 samples.

Results

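Cxcl1, Cxcl2 and Cxcl3 encode CXC chemokines, small secreted proteins that draw neutrophils out of the blood. The 3 genes were taken by name from the deposited gene table, which holds 23250 genes. All 3 passed the filter on low counts, as did 13468 genes in all. They were followed through RNA-seq libraries of mouse bone-marrow macrophages, grown for 7 days with GM-CSF from the supernatant of a producing cell line. The mice were on the C57BL/6J background. Every group, the untreated cells included, is described by the series as lacking the mannose receptor (MR), and the sources used here do not name the allele. Untreated cells were taken at 0 h. The others were treated for 4, 12 or 24 h with FcMR, in which the outer part of the MR is joined to a human IgG1 Fc region, or with its isotype control. That gave 7 groups of 3 libraries, 21 libraries in all, with the group and replicate number of each read from its title. The study asked what soluble MR does to macrophages.

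CXC chemokines carry 1 residue between their first paired cysteines. Those with a glutamate-leucine-arginine (ELR) motif before the cysteines bind CXCR2 on neutrophils, and Cxcl1, Cxcl2 and Cxcl3 belong to that subset. In macrophages their genes are transcribed within hours of a Toll-like receptor or cytokine signal, largely through NF-kB. Their mRNAs carry AU-rich elements that speed decay, so that levels usually fall soon after the signal ends.

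Library totals ran from 5532225 to 66729533 counts, and 3 counts corresponded to a level of 0.045 to 0.542 CPM, the usual unit of counts scaled to a common library total. Mrc1, the gene of the MR, had 0 to 11 counts per library and did not pass the filter. All 8 macrophage and myeloid markers were present, with a summed level of 26500 to 39200 CPM per library. Markers of neutrophils, which also express chemokine genes, were present too. All 11 were in the table, and they summed to 1840 to 2020 CPM in untreated libraries and to 509 to 772 CPM in both groups at 12 h. Markers of T, B and NK cells and of fibroblasts summed to at most 5.98 CPM per list in any library, and mast cell and epithelial markers to at most 31.7 CPM. Nothing in the labels says that replicates came from separate mice or cultures, so p-values measure only the spread between these samples. Untreated cells exist at 0 h only, so the control protein and the hours in culture cannot be told apart.

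The 3 genes lie on the plus strand of chromosome 5 (GRCm38), in a 147 kb stretch that also holds Cxcl5, Ppbp, Pf4 and Cxcl15. Cxcl3 (ENSMUSG00000029379.10) spans chr5:90786103-90789600, Cxcl1 (ENSMUSG00000029380.11) chr5:90891241-90893115 and Cxcl2 (ENSMUSG00000058427.10) chr5:90903871-90905938. Each reference transcript has 4 exons, and no annotated gene overlaps them. Cxcl2 and Cxcl3 were the closest pair in coding sequence, identical at 89.7% of aligned bases, against 76.0% for Cxcl1 and Cxcl2 and 72.7% for Cxcl1 and Cxcl3. Of the 75-base windows of the transcripts, the length of the reads, 3.48% of those of Cxcl2 and 3.82% of those of Cxcl3 occurred in the other gene, and none of those of Cxcl1 occurred in another gene. Only a small share of reads could therefore be split between Cxcl2 and Cxcl3 by the estimation of counts.

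All 3 genes were higher under FcMR than under isotype at each time. The 150 bases before the first annotated start of each gene are shown because these stretches share sequence that few promoters have. The part of that sequence in the differences was not tested. The stretches are RefSeq sequence of build GRCm38.p6, plus strand, 5′ to 3′. Capitals mark the longest words of at least 8 bases that all 3 stretches share. The stretches are chr5:90891091-90891240 for Cxcl1, chr5:90903721-90903870 for Cxcl2 and chr5:90785951-90786100 for Cxcl3.
Cxcl1: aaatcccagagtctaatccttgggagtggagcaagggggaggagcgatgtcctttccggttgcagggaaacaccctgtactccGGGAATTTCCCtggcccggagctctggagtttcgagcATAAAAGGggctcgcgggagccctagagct
Cxcl2: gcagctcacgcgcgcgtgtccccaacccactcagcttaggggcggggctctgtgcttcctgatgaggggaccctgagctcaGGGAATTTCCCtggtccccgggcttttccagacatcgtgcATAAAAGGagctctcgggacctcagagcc
Cxcl3: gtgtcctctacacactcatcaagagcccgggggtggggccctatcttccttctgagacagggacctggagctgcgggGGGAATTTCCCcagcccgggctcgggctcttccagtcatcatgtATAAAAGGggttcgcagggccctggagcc

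The 3 stretches shared 2 such words, GGGAATTTCCC and ATAAAAGG. The first holds a form of the kappa B site that NF-kB binds, and the second is a TATA-like element close to the start. The first word began 71 bases before the RefSeq start of Cxcl1, 97 before that of Cxcl2 and 73 before that of Cxcl3. Searched on both strands of 32851 RefSeq promoter windows, from 250 bases before to 50 after a start, GGGAATTTCCC was found in 0.0426% and ATAAAAGG in 1.76%. Both words were picked because the members share them, so these shares describe how rare the letters are and test nothing. The TATA box letters TATAAA, in 13.6% of windows, were found for Cxcl3 only, where they overlap ATAAAAGG. The AP-1 form TGANTCA, in 7.81% of windows, was found for none of the 3. Of 11 other listed CXC ligand and receptor genes with a window, 0 held GGGAATTTCCC. Cxcl5, Cxcl11, Cxcl16 and Cxcl17 had no window. Aligned base by base, pairs of the upstream stretches were identical at 61.1% to 64.1% of positions.

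The 3′ untranslated regions were rich in ATTTA, the core of AU-rich elements, searched on the sense strand. Cxcl2 had 11 copies in 737 bases, Cxcl1 had 7 in 595 and Cxcl3 had 5 in 648, with the stop codon counted in each length. Per kb these densities were 14.9, 11.8 and 7.72, above those of 99.6%, 99.3% and 97.9% of 11904 genes, whose median was 1.19. The longer element TTATTTATT was present 4 times in Cxcl2, 2 times in Cxcl1 and once in Cxcl3. In the background 7.15% of genes had at least 1 copy and 1.54% at least 2. Cxcl3 thus had the lowest density of the 3 genes on both counts of elements.

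Cxcl1, also known as KC, was the least abundant of the 3 per kb of transcript in untreated cells, and its group means spanned the widest range. Untreated libraries had 3.11, 2.39 and 5.15 CPM in replicates 1 to 3. Under isotype it stood at 83.2, 83.7 and 186 CPM at 4 h, at 7.12, 9.10 and 17.9 CPM at 12 h and at 1.08, 1.39 and 2.96 CPM at 24 h. Under FcMR it stood at 909.6, 768 and 1257 CPM at 4 h, at 62.8, 64.2 and 107 CPM at 12 h and at 14.9, 24.0 and 30.97 CPM at 24 h. At each time every FcMR library was above every isotype library. The share of all genes whose groups separate in this way was not computed. Non-overlap is therefore given as a description only, here and for the other members. The group means ran from 1.81 ± 1.01 CPM (SD, n = 3) under isotype at 24 h to 978 ± 252 CPM (SD, n = 3) under FcMR at 4 h, the latter 276 times the untreated mean. In order of level, isotype at 4 h overlapped FcMR at 12 h, FcMR at 24 h overlapped isotype at 12 h, and untreated overlapped isotype at 24 h. Isotype libraries at 24 h held only 11 to 23 Cxcl1 counts each, so their levels are the least precise.

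Cxcl2, also called MIP-2, was the most abundant of the 3 per kb of transcript in untreated cells, at 52.7 ± 4.85 CPM per kb (SD, n = 3), and at the FcMR peak. It stood at 55.6, 55.1 and 64.7 CPM in untreated libraries. Isotype libraries had 574, 450.1 and 703 CPM at 4 h, 58.2, 85.1 and 83.9 CPM at 12 h and 13.8, 14.8 and 17.8 CPM at 24 h. FcMR libraries had 3156, 3807 and 3742 CPM at 4 h, 288, 404 and 313 CPM at 12 h and 64.9, 98.8 and 65.5 CPM at 24 h. FcMR and isotype libraries did not overlap at any of the 3 times. The peak, FcMR at 4 h, was 3568 ± 359 CPM (SD, n = 3), 61.1 times the untreated mean. By 24 h the isotype group had dropped below untreated cells in every library, with a mean of 15.5 ± 2.05 CPM (SD, n = 3). FcMR at 24 h overlapped isotype at 12 h, and isotype at 12 h overlapped untreated. On the scale of the deposited normalized values isotype at 12 h lay just above untreated, at 751 to 1136 against 639 to 735, and FcMR at 12 h overlapped isotype at 4 h on that scale only.

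Cxcl3, sometimes called DCIP-1 in mice, started below Cxcl2, at 18.2 ± 1.41 CPM per kb (SD, n = 3), and stayed high for longer. Untreated libraries had 19.3, 16.9 and 19.4 CPM. Under isotype the values were 558, 425 and 768 CPM at 4 h, 233, 416 and 514 CPM at 12 h and 77.0, 93.1 and 117 CPM at 24 h. Under FcMR they were 1575, 1767 and 1829 CPM at 4 h, 1416, 1695 and 1696 CPM at 12 h and 594, 819.5 and 652 CPM at 24 h. Again no isotype library reached an FcMR library of the same time. The FcMR means at 4 h and 12 h, 1724 ± 133 and 1602 ± 161 CPM (SD, n = 3), came from overlapping libraries. At 24 h the FcMR mean was still 37.2 times the untreated mean, where it was 6.56 times for Cxcl1 and 1.31 times for Cxcl2. FcMR at 24 h also overlapped isotype at 4 h, and isotype at 4 h overlapped isotype at 12 h.

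**Figure D1:**
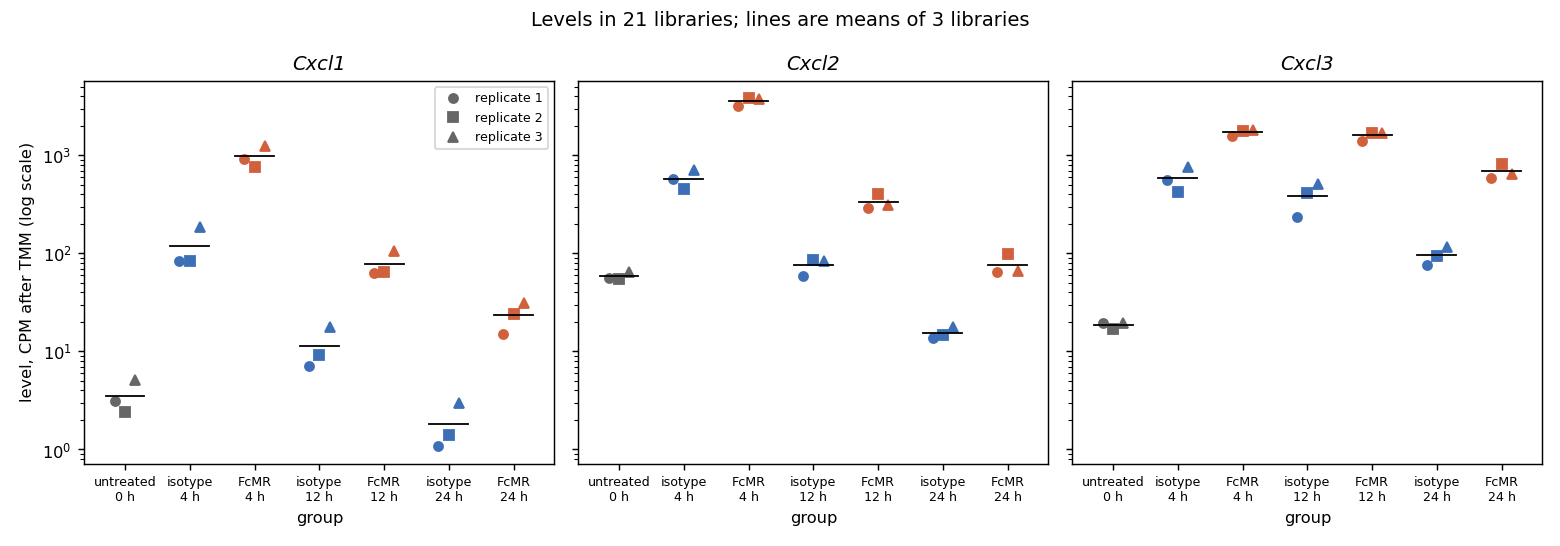
Levels of Cxcl1, Cxcl2 and Cxcl3 in CPM after TMM scaling (log axis) in the 7 groups; each point is a library, its shape gives the replicate number, and each line is the mean of 3 libraries. FcMR libraries (orange) sit above isotype libraries (blue) of the same time in all 3 panels, and the FcMR libraries of 4 h and 12 h overlap for Cxcl3.

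FcMR raised all 3 chemokines over the isotype control at 4, 12 and 24 h. Cxcl1 was higher by 3.05 on the log2 scale at 4 h (SE 0.41, adjusted p = 4.51e-05), by 2.72 at 12 h (SE 0.42, adjusted p = 1.31e-04) and by 3.73 at 24 h (SE 0.54, adjusted p = 5.12e-05), in edgeR's quasi-likelihood test. That is 8.28-fold, 6.60-fold and 13.3-fold. Cxcl2 was higher by 2.63 at 4 h (SE 0.20, adjusted p = 1.25e-07), by 2.15 at 12 h (SE 0.20, adjusted p = 6.41e-07) and by 2.31 at 24 h (SE 0.21, adjusted p = 2.97e-07), or 6.19-fold, 4.43-fold and 4.97-fold in the same test. Cxcl3 was higher by 1.56 at 4 h (SE 0.24, adjusted p = 2.07e-04), by 2.05 at 12 h (SE 0.25, adjusted p = 1.1e-05) and by 2.85 at 24 h (SE 0.26, adjusted p = 2.27e-07), or 2.95-fold, 4.13-fold and 7.21-fold. Of all genes tested, 8.62% were called higher under FcMR at 4 h, 8.61% at 12 h and 11.4% at 24 h. The split of calls at 4 h moved with the scaling, from 1161 higher and 1229 lower to 1412 and 839 with RLE factors, 1509 and 835 in DESeq2, and 1243 and 608 with the authors' factors. The members' calls held under each of these.

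These are bulk libraries, in which fewer cells of a type and less RNA per cell cannot be told apart. The summed neutrophil markers were 1280 to 1800 CPM under isotype and 1260 to 1460 CPM under FcMR at 4 h, and 660 to 772 against 509 to 761 CPM at 12 h, overlapping at both times. Under FcMR 8 of the 11 markers had a lower mean at 4 h and 3 a higher one. At 12 h 4 were lower and 7 higher. The median log2 differences over all genes tested were -0.0727 and -0.017. Mmp8, a neutrophil collagenase, was among the 4, at 157 CPM under FcMR against 350 CPM under isotype. At 24 h the summed markers were lower under FcMR, 619 to 764 against 1430 to 1510 CPM. Mmp8 accounted for all of that gap, with a mean of 1250 CPM under isotype and 451 CPM under FcMR. The means of the other markers summed to slightly more under FcMR than under isotype. Of the 11 markers, 9 had a lower mean under FcMR than under isotype at 24 h, where the median log2 difference over all genes tested was 0.00636. The other 2, S100a8 and Camp, had higher means, 137 against 85.4 CPM and 2.99 against 2.09 CPM. Ly6g, which defines neutrophils, averaged 0.156 CPM under FcMR and 0.242 CPM under isotype at 24 h, and Elane 0 and 0.0327 CPM. The 2 endothelial markers summed to 109 to 119 CPM under FcMR at 4 h, nearly all of it Kdr, against 54.7 to 58.5 CPM under isotype. The part of these cells in the chemokine differences was not tested.

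**Figure D2:**
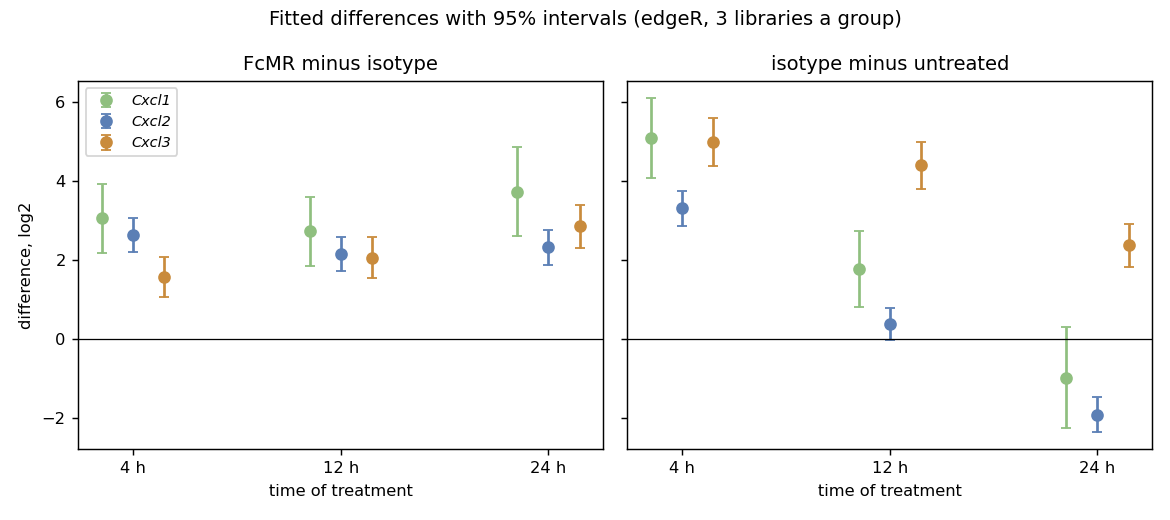
Fitted log2 differences of Cxcl1, Cxcl2 and Cxcl3 with 95% intervals, from edgeR, for FcMR minus isotype (left) and isotype minus untreated (right) at 4, 12 and 24 h, 3 libraries a group. All 9 intervals on the left lie above 0, and on the right only Cxcl3 stays above 0 at all 3 times.

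The isotype libraries themselves departed from untreated cells, and here the 3 genes parted with time. At 4 h Cxcl1 was higher by 5.09 on the log2 scale (SE 0.48, adjusted p = 1.86e-07, edgeR), Cxcl3 by 4.98 (SE 0.29, adjusted p = 2.39e-10) and Cxcl2 by 3.30 (SE 0.21, adjusted p = 1.06e-09). At this time 20.4% of all genes tested were called higher. At 12 h Cxcl3 was still higher by 4.39 (SE 0.28, adjusted p = 7.88e-10, edgeR), while Cxcl1 was higher by 1.77 (SE 0.46, adjusted p = 0.005). The Cxcl1 call was lost without isotype replicate 3 of 12 h, where the difference was 1.22 with an edgeR adjusted p of 0.0578. Of 6 fits that left out 1 library, 5 kept the call, as did 9 of 9 other alternatives. For Cxcl1, every isotype library of 12 h lay above every untreated library. Cxcl2 did not pass at 12 h, with a difference of 0.37 (95% interval -0.04 to 0.79, adjusted p = 0.143, edgeR), and it passed without isotype replicate 1 of 12 h, at 0.56 with an edgeR adjusted p of 0.0322. By 24 h Cxcl2 had fallen below untreated cells, by 1.92 on the log2 scale (SE 0.21, adjusted p = 9.37e-07, edgeR), and Cxcl3 was above them by 2.37 (SE 0.26, adjusted p = 8.62e-07). Cxcl1 at 24 h had a difference of -0.98, with a 95% interval of -2.26 to 0.29 that reaches from a drop to a small rise (adjusted p = 0.206, edgeR, with no term for the replicate number). With such a term Cxcl1 was called lower at 24 h, as given below under the dependence on processing. Calls of higher level made up 22% of all genes tested in the 12 h comparison. In the 24 h comparison the shares were 21.3% higher and 20.9% lower. These comparisons and those of FcMR against isotype use the same isotype libraries.

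The time courses show the same parting within each treatment. From 4 to 12 h under isotype, Cxcl1 fell by 3.32 on the log2 scale (SE 0.43, adjusted p = 1.74e-05, edgeR) and Cxcl2 fell by 2.93 (SE 0.21, adjusted p = 2.24e-08). The change of Cxcl3 in that interval, -0.59 (95% interval -1.10 to -0.09), did not pass (adjusted p = 0.0626, edgeR), though it lay near the threshold. It passed with RLE factors at an adjusted p of 0.0493 and in DESeq2 at 0.0326, and without isotype replicate 2 of 4 h or isotype replicate 3 of 12 h in edgeR at 0.0418 and 0.0228. Under FcMR, Cxcl1 fell by 3.65 (SE 0.42, adjusted p = 2.66e-06, edgeR) and Cxcl2 fell by 3.41 (SE 0.21, adjusted p = 1.88e-09) from 4 to 12 h. Cxcl3 changed there by -0.11, with a 95% interval of -0.61 to 0.40 (adjusted p = 0.752, edgeR), so a drop of the size seen in the other two lies outside its interval. Of all genes tested, 19.3% were called lower in the isotype step and 18.8% in the FcMR step.

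Between 12 and 24 h all 3 chemokines fell in both treatments. Under isotype the log2 differences were -2.75 for Cxcl1 (SE 0.54, adjusted p = 0.00174, edgeR), -2.29 for Cxcl2 (SE 0.21, adjusted p = 8.98e-07) and -2.02 for Cxcl3 (SE 0.25, adjusted p = 2.05e-05). Under FcMR the differences were -1.75 for Cxcl1 (SE 0.40, adjusted p = 0.0044), -2.13 for Cxcl2 (SE 0.20, adjusted p = 1.07e-06) and -1.22 for Cxcl3 (SE 0.24, adjusted p = 0.0014). Calls of lower level made up 9.49% of all genes tested under isotype and 12.6% under FcMR.

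Whether the FcMR effect itself changed over time was tested jointly over the 3 times. It passed for Cxcl3, whose effect ran from 1.56 at 4 h to 2.85 at 24 h, a range of 1.29 on the log2 scale, with an edgeR adjusted p of 0.0467. That call was lost in 20 of 28 alternative settings, 13 of them leaving out 1 library, with adjusted p-values of 0.0511 to 0.124 in edgeR or limma. Cxcl1 and Cxcl2 did not pass, with adjusted p = 0.624 and adjusted p = 0.481 in edgeR, and 11% of all genes tested did. Neither single step passed for any of the 3 genes. From 4 to 12 h the effect changed by -0.33 for Cxcl1 (95% interval -1.49 to 0.83), by -0.49 for Cxcl2 (-1.06 to 0.09) and by 0.49 for Cxcl3 (-0.22 to 1.196). From 12 to 24 h it changed by 1.01 (-0.44 to 2.45), 0.17 (-0.43 to 0.76) and 0.80 (0.09 to 1.52), with an adjusted p of 0.391 for Cxcl3 in edgeR. Of all genes tested, 5.39% passed for the first step and 1.73% for the second.

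The make-up of the 3 mRNAs turned over as time went on, from mostly Cxcl2 to mostly Cxcl3. It was computed from levels per kb of reference transcript (953 bases for Cxcl1, 1109 for Cxcl2 and 1016 for Cxcl3), as a description. In untreated cells Cxcl2 made up 70.6 ± 1.51% (SD, n = 3) of the 3 and Cxcl3 24.5 ± 1.65%. At 4 h Cxcl2 held 43.1 ± 2.71% under isotype and 54.2 ± 2.87% under FcMR, and Cxcl3 held 47.1 ± 1.02% and 28.6 ± 0.759%. By 12 h Cxcl3 had 82.1 ± 2.53% under isotype and 80.5 ± 0.898% under FcMR, and by 24 h 85.5 ± 0.675% and 88.0 ± 0.691%. Cxcl1 was a minor part, between 1.65 ± 0.578% under isotype at 24 h and 17.2 ± 3.46% under FcMR at 4 h. Under isotype the Cxcl3 share had already passed that of Cxcl2 at 4 h, and under FcMR it had done so by 12 h.

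**Figure D3:**
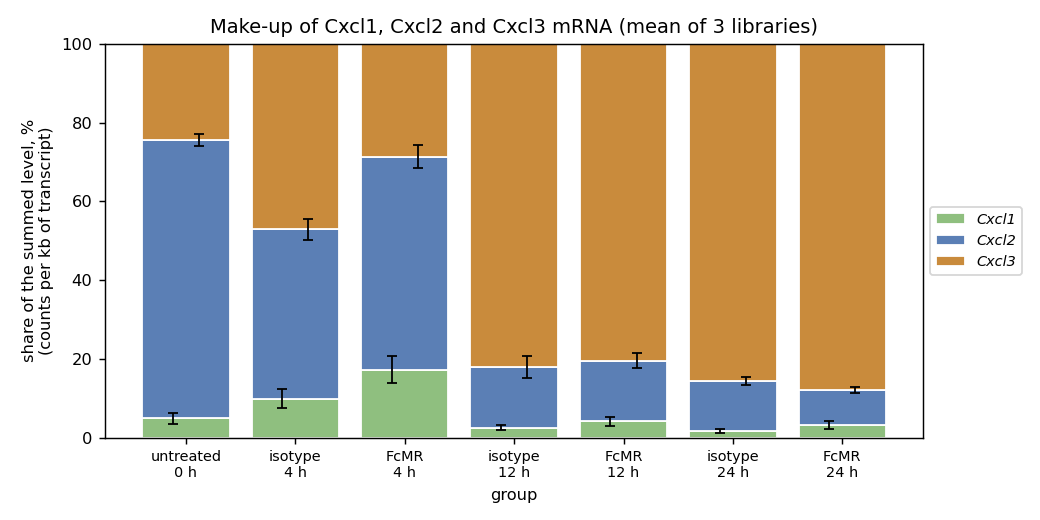
Share of Cxcl1, Cxcl2 and Cxcl3 in their summed level (percent, from CPM per kb of transcript) in the 7 groups, as means of 3 libraries with the SD of the Cxcl1 and Cxcl2 shares drawn at the top of each segment. Cxcl2 holds 70.6% in untreated cells, and Cxcl3 holds 80.5% to 88.0% in all groups at 12 and 24 h.

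Within the library, the ratio of Cxcl3 to Cxcl2 per kb separated FcMR from isotype at 4 and 24 h in opposite directions. At 4 h it was 1.03 to 1.19 under isotype and 0.507 to 0.545 under FcMR. At 12 h it was 4.38 to 6.68 and 4.58 to 5.92, which overlap. At 24 h it was 6.08 to 7.17 under isotype and 9.06 to 10.9 under FcMR. Compared with Cxcl2, Cxcl3 had the smaller difference from isotype at 4 h and the larger one at 24 h, as in the fitted differences above. The difference between the 2 genes was not tested. The ratio of Cxcl2 to Cxcl1 was 10.8 to 19.8 in untreated libraries. At 4 h it lay below that in both treatments, at 3.24 to 5.94 (isotype) and 2.56 to 4.26 (FcMR), which overlap. At 12 h it was 4.03 to 8.04 and 2.515 to 5.41, which overlap, and at 24 h 5.16 to 11.02 and 1.82 to 3.74, which do not. The ratio of Cxcl3 to Cxcl1 was 3.87 to 6.30 (isotype) and 1.365 to 2.16 (FcMR) at 4 h, without overlap. At 12 h it was 26.95 to 42.9 and 14.9 to 24.8, also without overlap. At 24 h it was 37.0 to 66.9 and 19.7 to 37.4, which overlap.

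Cxcl1 also varied with the replicate number. Its highest library was replicate 3 in 7 of 7 groups, and the number accounted for 86.1% of its variance within groups, against 38.9% for Cxcl3, 30.5% for Cxcl2 and a median of 18.2% over all genes tested. Only 2 genes had a larger share than Cxcl1, and 0.423% of genes were highest in replicate 3 in all 7 groups. Total counts were highest in replicate 3 in 3 of 7 groups, the summed neutrophil markers in 2 of 7, and the GC tilt of the library, the log2 slant of its counts towards GC-rich transcripts, in 4 of 7. Their part in the Cxcl1 pattern was not tested.

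By group means on the log2 scale, centred per gene and compared over the 7 groups among 11436 genes, the 3 chemokines had different neighbours. The measure was the root-mean-square distance, for which 0 means the same pattern. Leaving out the members themselves, the gene nearest to Cxcl1 was Ptgs2, the inducible cyclooxygenase, at 0.29, followed by Il6 (0.741), Il1a (0.812), Nos2 (0.936) and Il1f6 (0.946). Cxcl2 was nearest to Cd69, an early activation marker, at 0.468, then to Cxcl10 (0.522), Tnf (0.538), Tnfsf15 (0.587) and Il1f6 (0.593). Nearest to Cxcl3 was Ifi205, an interferon-inducible gene, at 0.186. After it came Acod1, which makes itaconate, at 0.424, Gbp6 (0.451), Isg15 (0.571) and Oasl1 (0.573). With the members counted, Cxcl2 ranked 3rd among the genes nearest to Cxcl1, at 0.751, and Cxcl3 ranked 57th. From Cxcl3, the distances were 1.68 to Cxcl1 and 1.80 to Cxcl2, which ranked 533rd and 815th among its neighbours.

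**Figure D4:**
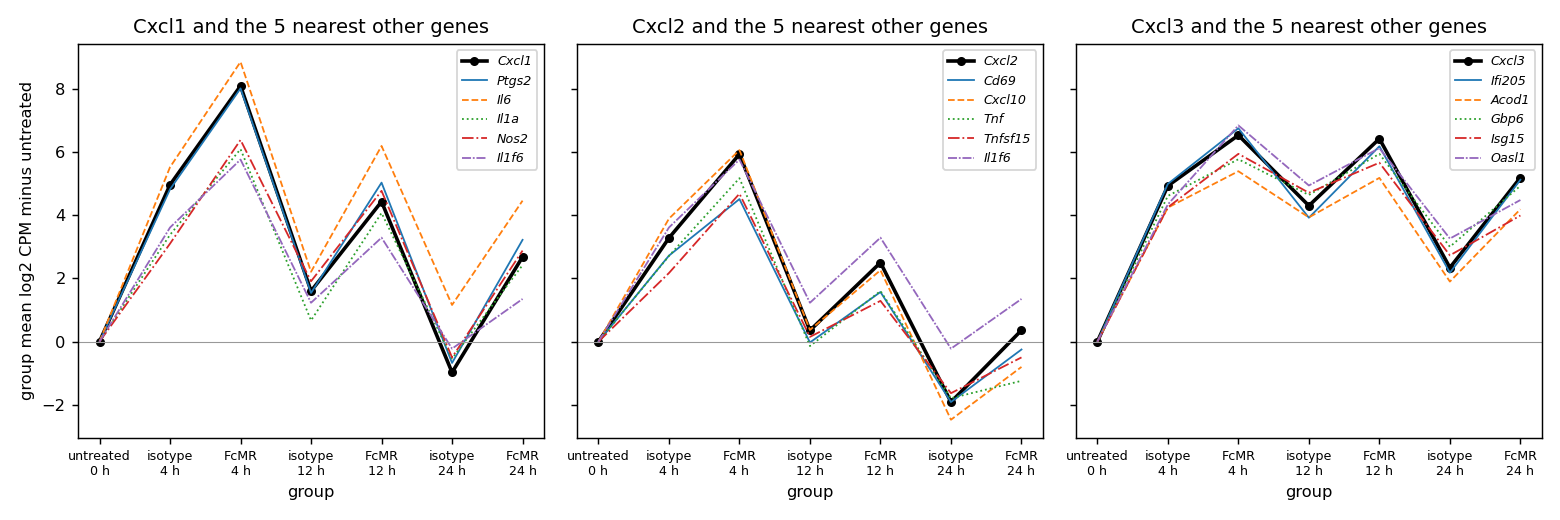
Group means of log2 CPM minus the untreated mean for each chemokine (black) and the 5 genes nearest to it over the 7 groups, the other members left out. Cxcl1 and Cxcl2 and their neighbours drop from 4 to 12 h within each treatment, whereas Cxcl3 and its neighbours stay high at 12 h.

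Of the other 3 listed ELR chemokines, 2 passed the filter, and their differences between FcMR and isotype went in opposite directions. Cxcl5, a neutrophil attractant encoded in the same stretch of chromosome 5, was higher by 1.49 at 4 h (adjusted p = 0.00527, edgeR), 2.15 at 12 h (adjusted p = 8.08e-05) and 2.06 at 24 h (adjusted p = 1.84e-04). Its level peaked at 12 h, at 50.2 ± 7.64 CPM (SD, n = 3) under FcMR and 11 ± 5.16 CPM under isotype. In untreated libraries it averaged 0.0477 CPM, under the level of 3 counts. Ppbp, the platelet basic protein that is cut to CXCL7, had a difference of -0.13 at 4 h (adjusted p = 0.628, edgeR). It was lower than under isotype by 1.51 at 12 h (adjusted p = 2.38e-06) and by 2.17 at 24 h (adjusted p = 2.78e-08). Isotype itself was above untreated cells for Ppbp, by 3.44, 3.26 and 3.52 on the log2 scale at 4, 12 and 24 h. Its FcMR mean at 12 h was 17.7 CPM, and the untreated mean was 5.21 CPM. Its mean at 24 h was 60.1 ± 7.82 CPM (SD, n = 3) under isotype and 13.2 ± 2.49 CPM under FcMR. Cxcl15 had at most 3 counts in a library.

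Cxcr2, the receptor of these chemokines, averaged 9.31 ± 0.594 CPM (SD, n = 3) before treatment. Isotype libraries were lower, with log2 differences of -1.33 in the 4 h group, -2.30 in the 12 h group and -1.98 in the 24 h group (adjusted p = 0.00212, 7.99e-06 and 5.19e-05, edgeR). FcMR did not change it detectably from isotype, at 0.16, 0.15 and -0.48 (adjusted p = 0.799, 0.836 and 0.377, edgeR). Neutrophils express Cxcr2 too. Of the 11 neutrophil markers, 11 had a lower mean under isotype than in untreated cells at 4 h, 11 at 12 h and 10 at 24 h, the exception being Mmp8 (1250 against 370 CPM). The median log2 differences over all genes tested were -0.000335, 0.033 and -0.0367. At 4 h S100a8 was nearly level, at 394 against 408 CPM. Under isotype at 24 h Ly6g, Retnlg and Elane averaged 0.242, 0.19 and 0.0327 CPM, under the level of 3 counts. The part of neutrophils in the Cxcr2 differences was not tested. Cxcr1 had at most 8 counts in a library, and Ackr1 was not analysed here.

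Among the 9 listed CXC ligands without ELR, 6 passed the filter, and 4, 4 and 3 of them rose under FcMR at 4, 12 and 24 h, beside 8.62%, 8.61% and 11.4% of all genes tested. Cxcl9, Cxcl10 and Cxcl11, which bind CXCR3 on T cells, had differences of 1.71, 2.15 and 1.43 in the 4 h comparison. In the 12 h comparison these were 1.52, 1.91 and 1.91, and all of these passed. At 24 h Cxcl9 rose by 2.09 and Cxcl10 by 1.70, and Cxcl11 had a difference of 1.68 with an edgeR adjusted p of 0.215. Cxcl11 then averaged 0.0858 CPM under isotype and 0.28 CPM under FcMR, near or under the level of 3 counts. Cxcl16, a membrane-bound ligand and scavenger receptor, rose by 0.55, 0.55 and 1.07. Cxcl14 was the only gene of the 6 called lower, with differences of -2.06 at 12 h and -1.87 at 24 h. Pf4, platelet factor 4, was not called, with differences of -0.01, -0.10 and -0.23. Cxcl10, Cxcl11 and Cxcl16 overlap an annotated gene on the other strand, and whether the counting used strand is not given in the sources used here. Cxcl12 had at most 10 counts, and Cxcl13 and Cxcl17 were not analysed here.

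**Figure D5:**
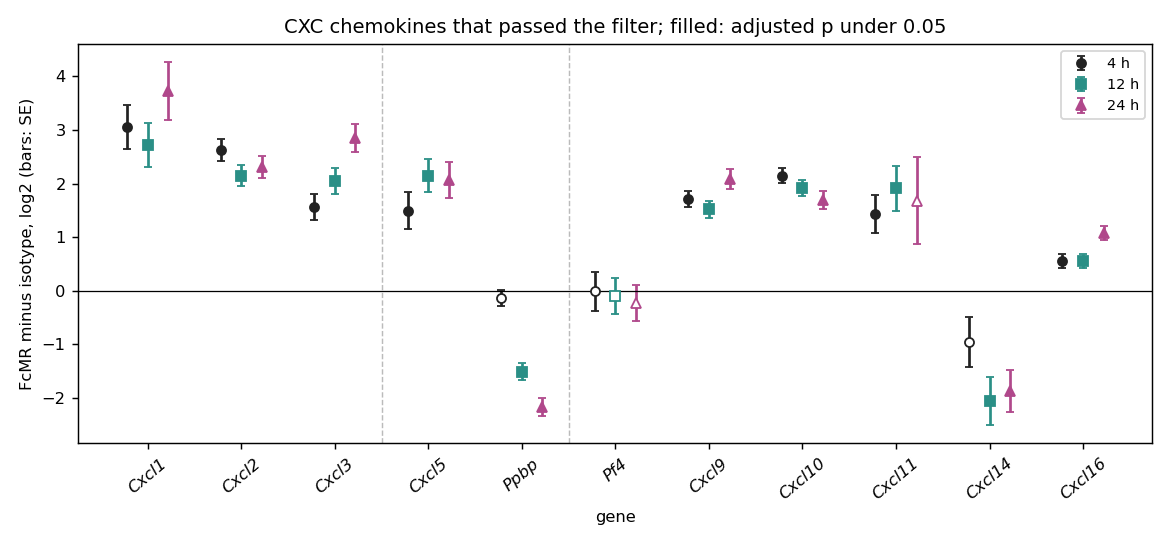
Log2 differences of FcMR minus isotype at 4, 12 and 24 h, with SE bars, for the 11 CXC chemokines that passed the filter; filled points passed at an adjusted p under 0.05, and dashed lines part the members, other ELR ligands and ligands without ELR. Cxcl1, Cxcl2, Cxcl3 and Cxcl5 are higher at all 3 times, while Ppbp and Cxcl14 are lower at 12 and 24 h.

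The remaining lists cover regulators and companions of these chemokines. Of 13 genes for NF-kB, its inhibitors and C/EBP factors, 5 rose and none fell at each time, beside 8.62%, 8.61% and 11.4% of all genes called higher, with a median difference at 4 h of 0.655 against -0.0727 over all genes tested. Nfkbiz, an atypical IkB protein that acts in the nucleus on secondary NF-kB targets, rose most, by 2.12 at 4 h (adjusted p = 2.28e-09, edgeR) and 1.34 at 12 h. At 24 h Nfkbia, the IkB-alpha gene, had the largest rise, 1.5 (adjusted p = 5.64e-06, edgeR). Under isotype against untreated, 2 of the 13 were higher at 4 h, where 20.4% of all genes tested were. At 12 h 6 were lower and at 24 h 12, beside 19.6% and 20.9% of all genes tested.

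Of 9 genes that act on AU-rich mRNA, 1 rose at each time, and 1, 2 and 1 were lower at 4, 12 and 24 h. Over all genes tested, 8.62%, 8.61% and 11.4% were called higher and 9.13%, 7.49% and 9.44% lower, so counts this small in a list of this length lie near the background. At 4 h Zc3h12a, the RNase regnase-1, rose by 1.62 (adjusted p = 0.00864, edgeR). Zfp36l2, a relative of the decay factor tristetraprolin, was lower at each time, with differences of -0.83, -0.69 and -0.66 (adjusted p = 1.8e-05, 7.22e-05 and 8.07e-05, edgeR). Hnrnpd, which encodes the binding protein AUF1, rose by 0.44 at 12 h and 0.33 at 24 h. Tristetraprolin itself, Zfp36, was not called at any time, with differences of 0.26, -0.40 and 0.03. Zfp36l2, Hnrnpd and Zfp36 each overlap an annotated gene on the other strand. The list's medians were 0.224, -0.111 and 0.03.

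Cytokines that act with these chemokines on neutrophils rose broadly at first. Of 9 genes, 9 rose at 4 h, 8 at 12 h and 4 at 24 h, and none fell, beside the 8.62%, 8.61% and 11.4% of all genes called higher. The list's median went from 3.16 at 4 h to 1.74 and 0.548, beside -0.0727, -0.017 and 0.00636 over all genes tested. Csf2, Csf3 and Il23a at 24 h averaged 0, 0.122 and 0.223 CPM under isotype and 0.0343, 0.0774 and 0.126 CPM under FcMR. Csf2, the gene not called at 12 h, averaged 0.0202 CPM under isotype and 0.143 CPM under FcMR then. These means lie near or under the level of 3 counts, so a difference there could hardly be measured. Il23a rose most at 4 h, by 3.81 (adjusted p = 8.86e-10, edgeR), Il6 at 12 h by 4.01 (adjusted p = 6.38e-09) and Il1b at 24 h by 4.37 (adjusted p = 5.19e-12). Il1b overlaps an annotated antisense gene, Il1bos, as Il1a overlaps Gm14023 and Csf2 overlaps Gm12223. At 24 h the 4 genes still called were Il1a, Il1b, Il6 and Tnf, at 2.99, 4.37, 3.40 and 0.55. The 3 members had differences of 3.73, 2.31 and 2.85 at that time.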

How the data were processed

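RNA of 21 libraries was sequenced as 75-base single-end reads with a TruSeq RNA v2 kit, per the labels' protocols. The submitters' processing notes name CASAVA 1.8.2, kallisto 0.44.0 and DESeq2, and builds mm10 and GRCm38. The raw table deposited by the authors holds estimated counts per gene, already whole numbers. Their second deposited table holds normalized signal on a linear scale, which equals the first divided by a factor for each gene and library. The transcript annotation and strand setting are not given in the sources used here.

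Symbols were matched by Ensembl ID without version to GENCODE M21 (GRCm38), for 23187 of 23250 genes. Upstream sequences and motif shares come from the RefSeq table of GRCm38.p6. All 3 members matched.

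Differences were tested with edgeR 4.0.16 (R 4.3.3), by the quasi-likelihood test in 1 fit of 21 libraries with a coefficient per group, TMM scaling and filterByExpr (minimum count 10). Benjamini-Hochberg adjustment ran over 13468 genes, with calls under 0.05. Levels are CPM after TMM, and 95% intervals come from the fitted SE with 17.2 residual degrees of freedom. The procedure was tested on simulated data. Alternatives were RLE factors, DESeq2 1.42.0, limma 3.58.1 on log2(normalized + 1), the authors' factors, other filters, a replicate block, a GC correction, a fit of only the libraries compared, and leaving libraries out.

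Replicate libraries of a group differed by more than sampling noise, so each was counted. The level that 3 counts can show covers counting error only, as molecular identifiers were not part of the counts. The members and gene lists were chosen with earlier results of these data known, so they are not independent evidence. Genes of the first lists were named in full, and of the other lists those with the largest called difference in each direction at each time; the remaining named genes were chosen after their values were seen.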

Additional observations from a re-analysis of the deposited data

Results flagged for a closer look

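Cxcl3 had an FcMR effect that differed between times, by the joint test over 4, 12 and 24 h (edgeR quasi-likelihood test, adjusted p = 0.0467). The effect was 1.56, 2.05 and 2.85 on the log2 scale at 4, 12 and 24 h. The call was lost in 20 of 28 alternative settings.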

How the results depend on the processing

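The 141 alternative settings of the 3 members for FcMR against isotype all kept their direction and their call. Over all comparisons 653 of 684 settings did so, 21 lost a call, 7 gained one and 3 turned the direction of a value that was not called. Over all genes, the replicate numbers shared by the titles did not pair the samples: correlations of deviations between same-numbered FcMR and isotype libraries averaged -0.071, 0.106 and 0.014 at 4, 12 and 24 h. Cxcl1 was unlike most genes, with 86.1% of its variance within groups by number. For FcMR against isotype, a replicate block lowered its SE from 0.41 to 0.17 at 4 h, 0.42 to 0.18 at 12 h and 0.54 to 0.23 at 24 h. With the numbers as a replicate block, Cxcl1 passed for isotype against untreated at 24 h (-0.97, adjusted p = 0.00694) and Cxcl3 for isotype 12 h against 4 h (-0.62, adjusted p = 0.024). The block changed no other call of the members and raised the count for FcMR against isotype from 2390 to 2541 at 4 h, from 2169 to 2290 at 12 h and from 2813 to 2911 at 24 h.

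The joint test of Cxcl3 gave a range of 1.204 with RLE factors (adjusted p = 0.0532), 1.196 without a filter (0.103), 1.17 in limma (0.0758), 1.203 with the authors' factors (0.0639), 1.22 with GC correction (0.065), 1.198 with only the libraries compared (0.084) and 1.05 without both libraries whose place in the deposit departs from title order, isotype replicate 3 of 4 h and FcMR replicate 1 of 12 h (0.0596). Leaving out 1 library gave 1.05 to 1.44. Cxcl3 for isotype 12 h against 4 h passed with RLE factors and in DESeq2 (-0.60 in both), and leaving out 1 library gave -0.81 to -0.28. Leaving out 1 library gave 1.22 to 2.13 for Cxcl1 and 0.31 to 0.56 for Cxcl2 in isotype against untreated at 12 h. Signs turned for the Cxcl1 change from 4 to 12 h without isotype replicate 3 of 12 h (0.22, over -0.84 to 0.22 when 1 library was left out), for the Cxcl2 change from 12 to 24 h without FcMR replicate 2 of 24 h (-0.07, over -0.07 to 0.34), and for Cxcl3 in FcMR 12 h against 4 h with GC correction (0.0485).

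Counts of calls over all genes moved more. GC correction gave 3863 for FcMR against isotype at 4 h (from 2390), 3338 at 12 h (from 2169), 3034 in the joint test (from 1484), 1686 and 667 for the steps 4 to 12 h and 12 to 24 h (from 726 and 233), and 3525 for isotype 24 h against 12 h (from 2247). Only the libraries compared gave 868 for FcMR at 4 h, 2881 for isotype against untreated at 4 h (from 4792), 359 for the first step, 2689 for isotype 12 h against 4 h (from 4737), 5794 for isotype 24 h against 12 h and 1046 for FcMR 24 h against 12 h (from 3203). Without both libraries out of order the counts were 3898 for FcMR at 4 h, 2616 in the joint test, 7127 for isotype 12 h against 4 h and 5407 for FcMR 24 h against 12 h. No filter gave 925 in the joint test and 349 and 154 for the steps; limma gave 400 and 138, the authors' factors 418 and 138, and DESeq2 363 for the second. Leaving out 1 library gave 1589 to 3151 for FcMR at 4 h (lowest without FcMR replicate 2), 973 to 2294 in the joint test, 323 to 1422 for the first step, 3126 to 6739 for isotype 12 h against 4 h, 1401 to 1675 for isotype 24 h against 12 h and 1988 to 4276 for FcMR 24 h against 12 h. Higher and lower calls were 356 and 370 for the first step, and 226 and 453 with RLE factors, 329 and 580 in DESeq2 and 119 and 299 with the authors' factors; for isotype 24 h against 12 h they were 969 and 1278, and 1220 and 1065 with RLE factors. The cause of these moves was not tested, apart from the fewer samples or genes that some settings use.

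Depth limits Cxcl1 most, with 11 to 23 counts in the isotype libraries of 24 h.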

Other observations

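The word GGGAATTTCCC shared by the upstream stretches of Cxcl1, Cxcl2 and Cxcl3 was found in the promoter windows of 14 genes, and 4 other than the members passed the filter. Hpn, a membrane serine protease, Il16, which encodes a T-cell attractant, and Zfp84 were called between FcMR and isotype at none of the 3 times. Lyzl4 was lower under FcMR at 24 h, at -1.86 on the log2 scale (adjusted p = 0.00242, edgeR), and was not called at 4 or 12 h. Of the 4, 0 were called higher under FcMR at 4, 12 and 24 h, beside 8.62%, 8.61% and 11.4% of all genes tested. A count of 0 among 4 genes lies near that background. Their median difference at 4 h was -0.05, beside -0.07 over all genes tested.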
